A study of Homo sapiens with 12 samples.

Results

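The data described here are the response to doxycycline (dox) without androgen in cells labelled as a prostate cancer line built to switch on RUNX2, measured on bead arrays that read total RNA. Levels of some markers given below go against that label, and RUNX2 itself changed little. The 3 dox arrays (titled C42B_181_Dox) were set against 3 vehicle arrays (titled C42B_181_Et), by the titles alone. Genes counted as members if a probe of theirs exceeded background in the dox group, the vehicle group or both, which left 11707 genes of the 12122 above background in any of the study's 4 groups and of 20046 genes with a named probe. The remaining 6 of the 12 arrays were 3 from cells given the androgen dihydrotestosterone (DHT) with dox and 3 given DHT. They served for the spread, for the choice of probes and of the genes tested, and for the last comparison.

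All 4 groups are labelled as the same cells, called C4-2B/181 in one label and C4-2B/Rx2dox in another. C4-2B is a derivative of the LNCaP prostate cancer line, and the labels give 1 engineered line and no line without the RUNX2 gene, so that an effect of dox itself and an effect of induced RUNX2 cannot be told apart. For 48 h before treatment all cells grew without phenol red, in 5% serum stripped of steroid hormones with charcoal. Dox was given at 250 µg/ml for 48 h, DHT at 10 mM, and the vehicle was ethanol, all as the labels state them. The unit of these doses was not resolved, since both lie far above those common in cell culture. The groups were described as biological triplicates, and the labels say no more on how the cultures were separated, so the p-values measure the spread between these arrays.

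RUNX2 is a DNA-binding transcription factor that, with its partner CBFB, directs the formation of bone and cartilage, and in prostate cancer cells it has been tied to invasion and to bone metastasis. The estrogen receptor, encoded by ESR1, is a hormone-activated transcription factor of breast and uterine epithelium. In hormone-dependent breast cells it raises a well-known set of genes, among them GREB1, PGR and TFF1, lowers another, and drives entry into the cell cycle. Both lists are given below side by side.

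The labelled cell type was checked against its markers on these 6 arrays. Of 18 prostate luminal markers with a probe, 6 were above the background limit of 147.5 intensity units on all 6 arrays and 8 on none. Those 6 were PMEPA1, TMPRSS2, AMACR, SLC45A3, MSMB and ALOX15B. KLK3, the gene of prostate-specific antigen, exceeded the limit on 1 array, with a highest intensity of 178.6, and KLK2, HOXB13 and FOLH1 on 0. Of 21 breast luminal markers, 14 were above the limit on all 6 arrays. The 5 above it on none were PIP, SCGB2A2, ANKRD30A, TFAP2B and AZGP1. ESR1 averaged 2838 on dox arrays and 4370 on vehicle arrays, and GATA3 averaged 2702 on dox arrays and 3888 on vehicle arrays. The low KLK3, KLK2, HOXB13 and FOLH1 and the bright ESR1 and GATA3 go against the prostate label. The prostate markers above the limit and the breast markers on no array do not. Which cells the arrays hold was not settled by these files, and every group below is named by its label only. No value is given for the androgen receptor gene.

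The summed intensity of the prostate luminal markers lay between 3927 and 4142 on dox arrays and between 4870 and 5225 on vehicle arrays. PMEPA1 averaged 1034.9 on dox arrays and 1687.1 on vehicle arrays, and TMPRSS2 319.8 and 704.0. AMACR, SLC45A3 and MSMB had higher means on dox arrays, and of 9 measured prostate markers 2 were called higher and 3 lower. The summed intensity of the breast luminal markers lay between 120937 and 123337 on dox arrays and between 95122 and 98863 on vehicle arrays. Bright members weigh most in such sums. TFF1, TFF3 and XBP1 were among the breast luminal markers with a higher mean on dox arrays. ESR1, GATA3, FOXA1 and ERBB3 were among those with a lower mean there, so the sum does not describe every member. Neuroendocrine markers, of which 2 of 10 were above background on all 6 arrays, summed to between 2914 and 3012 on dox arrays and between 2280 and 2543 on vehicle arrays. These 2 were STMN1, with means of 1575 on dox arrays and 1170 on vehicle arrays, and ENO2, with 362.0 and 252.9. CHGA, CHGB and SYP were above background on no array. Sums for basal epithelial markers were 5432 to 5887 on dox arrays and 4802 to 5348 on vehicle arrays. The ranges overlapped for fibroblast markers (2301 to 2488 on dox arrays, 2398 to 2580 on vehicle arrays), immune markers (1871 to 2194 on dox arrays, 1887 to 2195 on vehicle arrays) and endothelial markers (925 to 979 on dox arrays, 969 to 1003 on vehicle arrays). Endothelial markers were above background on all 6 arrays in 0 of 8 cases and immune markers in 1 of 12. The part that any of these lists plays in the results was not tested. Correlations lay at 0.9792 to 0.9823 for the 9 pairs of a dox and a vehicle array, and at 0.9938 to 0.9952 for the 6 pairs within a group.

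Across the members, 3969 genes differed between dox and vehicle arrays (33.9%; limma, Benjamini-Hochberg adjusted p under 0.05 over all 12122 genes). Of these, 1949 were higher with dox (16.6%) and 2020 lower (17.3%), and the median log2 change of all members was -0.006. A change of at least 1.5-fold was called for 733 genes (6.26%), with 327 higher and 406 lower. At 2-fold or more there were 68 genes higher and 89 lower. At 4-fold or more there were 12 higher and 3 lower, so more of these changes lay on the higher side. The 3 dox values did not overlap the 3 vehicle values for 5223 genes (44.6%). Because the deposited intensities hold background signal, folds of dim genes are compressed. In RNA from whole cultures, fewer cells of a type and less RNA per cell cannot be told apart.

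**Figure D1:**
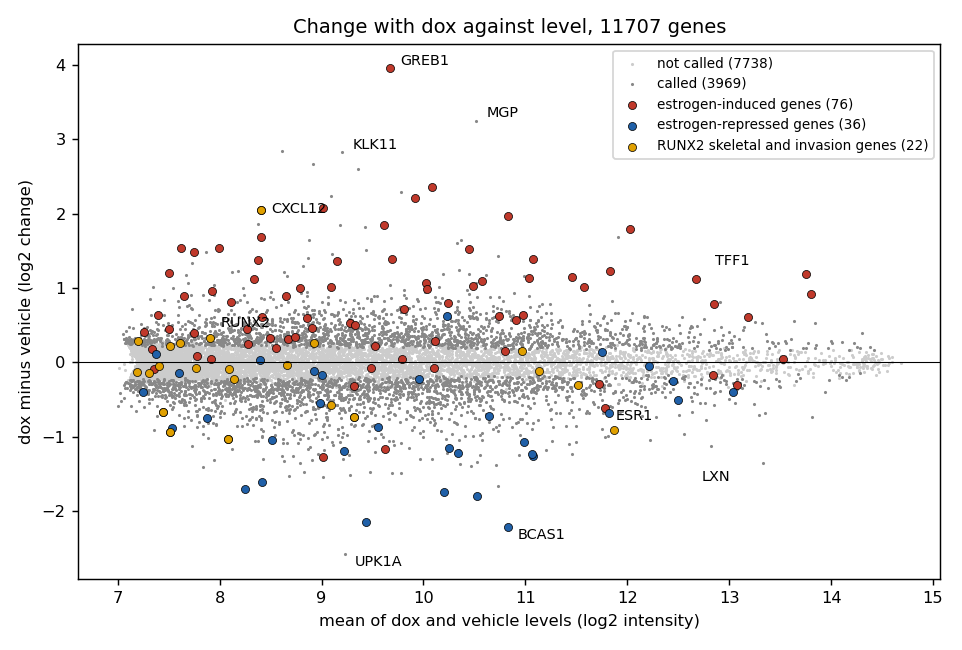
Log2 change (dox minus vehicle) of 11707 genes against the mean of their dox and vehicle levels in log2 intensity, with called genes in dark grey and members of 3 gene lists in colour; the 5 genes on the RUNX2 list and on an estrogen list take the RUNX2 colour. The red estrogen-induced genes lie mostly above 0, the blue estrogen-repressed genes mostly below it, and the RUNX2 list lies on both sides.

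RUNX2 itself, the intended product of the dox switch, changed little at its measured probes. The brighter probe (ILMN_1716651) read 293.1, 271.7 and 244.6 on dox arrays, against 210.3, 206.8 and 225.8 on vehicle arrays. The groups did not overlap, and the log2 change was 0.33 ± 0.10 (SE, n = 3 a group, limma adjusted p = 0.016). It no longer passed without vehicle replicate 2 (0.304, limma adjusted p = 0.056), without dox replicate 1 (0.268, limma adjusted p = 0.0849) or as the mean of both probes (0.159, limma adjusted p = 0.149). The dimmer probe (ILMN_2377746) read 163.2, 159.5 and 181.3 on dox arrays and 160.1, 179.2 and 168.7 on vehicle arrays, with overlapping groups and a change of -0.01. Whether either probe reads the induced copy is not stated in these sources, and RUNX2 therefore leaves the dox label unchecked.

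Among the other RUNX genes and their partners, CBFB, which stabilises RUNX proteins on DNA, read 552.7, 561.7 and 490.2 on dox arrays and 442.6, 409.2 and 484.6 on vehicle arrays. Its change of 0.26 passed the test (limma adjusted p = 0.0373) and was lost in 6 of 22 alternatives, among them without vehicle replicate 1 or 2 and without dox replicate 1 or 2, and its dimmer probe changed by 0.12. RUNX3 read 207.3, 188.2 and 196.7 on dox arrays and 184.7, 152.9 and 173.1 on vehicle arrays, which did not overlap but missed the threshold (limma adjusted p = 0.0827). RUNX1 changed by -0.04, RUNX1T1 by -0.07 and CBFA2T2 by -0.13, all with overlapping groups and none past the threshold. Of 6 measured genes of this family, 2 were called higher and 0 lower, a share called of 33.3% that lies at the 33.9% of all members, and 0 were called without vehicle replicate 2 or without dox replicate 1.

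A list of 40 genes tied to RUNX2 in bone and in cancer invasion had 22 measured members, of which 5 rose, 8 fell and 9 did not pass the test. The share called was 59.1%, against 33.9% of all members, and the median change was -0.10. CXCL12, a chemokine that guides cells to bone marrow, carried the largest rise. It read 701.5, 659.7 and 707.2 on dox arrays, against 187.9, 153.4 and 158.2 on vehicle arrays, a 4.16-fold difference (log2 2.06 ± 0.09 SE, limma adjusted p = 1.68e-13), and its 2 other probes changed by 2.32 each. The other 4 rises were small: RUNX2 and CBFB as above, TWIST1, a factor of mesenchymal transition, by 0.29, and VEGFA, an angiogenic growth factor, by 0.26. Without vehicle replicate 2 those 4 lost their calls, and 1 member was called higher and 7 lower. Without vehicle replicate 3, or without any single dox replicate, 3 were called higher and 7 lower.

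The 8 members of the RUNX2 list that fell had various roles. SOX9, the master factor of cartilage, read 216.8, 173.4 and 181.6 on dox arrays and 407.6, 373.9 and 379.5 on vehicle arrays (log2 -1.03 ± 0.09 SE, limma adjusted p = 1.26e-08). BMF, a BH3-only inducer of cell death, lay under the background limit on all dox arrays and was at least 1.71-fold lower there. Such bounds set the brighter group against the background limit, or against the dim value itself where that is higher. The calcium-binding S100P fell by 0.92, the TGF-beta mediator SMAD3 by 0.74, the repressor SNAI2 by 0.67, the homeobox factor MSX2 by 0.57 and the LIM protein CRIP2 by 0.31 on the log2 scale. CXCR4, the receptor of CXCL12, changed by -0.22 and kept its call in 10 of 22 alternatives. The bone matrix genes COL1A1 (-0.05) and IBSP (-0.15), the protease gene MMP9 (-0.08) and the osteoclast regulators TNFSF11 (-0.14) and TNFRSF11B (-0.09) did not pass. BMF, SMAD3, SNAI2 and SOX9 also stand on the estrogen-repressed list, and CXCL12 on the estrogen-induced list.

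**Figure D2:**
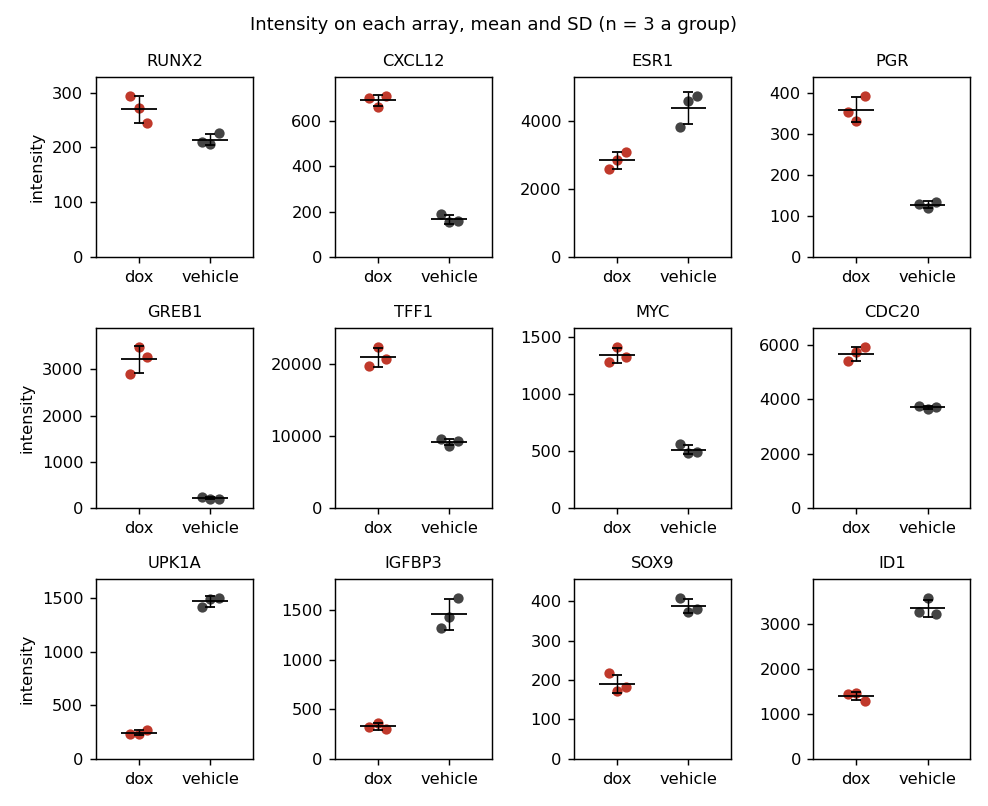
Intensity of 12 genes on each of the 3 dox and 3 vehicle arrays (points), with the mean as a bar and the SD as whiskers, each axis starting at 0. GREB1, PGR, TFF1, CXCL12, MYC and CDC20 lie higher on every dox array than on any vehicle array, and ESR1, UPK1A, IGFBP3, SOX9 and ID1 lower, while the RUNX2 groups are nearest to each other in ratio.

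Genes listed as raised by estrogen in breast cells rose widely with dox. Of 76 measured members of the estrogen-induced list, 57 rose, 6 fell and 13 did not pass the test, so that 75% were higher against 16.6% of all members, with a median change of 0.75. The direction of 12 of these genes was known when the list was written. Among the other 64, 46 rose, 5 fell and 13 did not pass, with a median of 0.63. The list was written with earlier results of these data known, so these 64 are no independent check. Counts for the whole list across the 22 alternatives ran from 56 to 59 higher and from 5 to 7 lower.

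GREB1, a chromatin-bound cofactor of the estrogen receptor, read 2896, 3479 and 3273 on dox arrays, against 230.9, 190.8 and 200.1 on vehicle arrays, a 15.5-fold difference. Its other probes lay near background and changed by 0.25 to 0.38. PGR, the progesterone receptor, read 355.2, 331.4 and 392.2 on dox arrays, and 129.4, 119.6 and 135.4 on vehicle arrays, where no array was above background. It was at least 2.43-fold higher with dox (limma adjusted p = 8.57e-11). The secreted trefoil peptides were bright throughout: TFF1 read 19691, 22332 and 20769 on dox arrays and 9547, 8639 and 9334 on vehicle arrays (2.28-fold), and TFF3 was 2.18-fold higher.

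Regulators of growth on the estrogen-induced list rose as well. MYB, a transcription factor of progenitor and breast cancer cells, was 4.62-fold higher, its relative MYBL1 3.21-fold, and EGR3, an immediate early factor below background on every vehicle array, at least 2.28-fold. MYC, which drives ribosome production and growth, read 1279, 1406 and 1324 on dox arrays, against 559.9, 482.0 and 492.5 on vehicle arrays. CCND1, the D-type cyclin that opens the G1 phase, read 10693, 11408 and 12280 on dox arrays, against 7499, 7160 and 7941 on vehicle arrays. These groups did not overlap, and the changes were 1.39 ± 0.08 and 0.60 ± 0.06 (SE). The retinoic acid receptor RARA was 2.14-fold higher, the receptor chaperone FKBP4 2.20-fold, the secretory stress factor XBP1 1.90-fold and the lysosomal protease CTSD 2.02-fold. RERG, a small GTPase that restrains growth, rose by 2.08, the serine protease gene PRSS23 by 2.35, the vesicle GTPase RAB31 by 1.97 and the amino acid transporter SLC7A5 by 1.79 on the log2 scale.

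The 6 members of the estrogen-induced list that fell were SCNN1A, ANXA9, ESR1, OPN3, CYP1B1 and TOB1. ESR1 encodes the receptor itself, and whether estrogen raises or lowers it in these cells was not tested. ESR1 read 2591, 2838 and 3084 on dox arrays, against 3826, 4574 and 4711 on vehicle arrays (log2 -0.62 ± 0.09 SE, limma adjusted p = 1.09e-05). SCNN1A, a subunit of the epithelial sodium channel, was 2.43-fold lower and the annexin ANXA9 2.24-fold lower. OPN3 fell by 0.32 (-0.17 at its other probe), CYP1B1, which hydroxylates estradiol, by 0.31, and the antiproliferative TOB1 by 0.29 on the log2 scale. The TOB1 call was lost in 3 of 22 alternatives.

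Genes lowered by estrogen in breast cells were lower with dox. Of 36 measured members of the estrogen-repressed list, 28 fell, 1 rose and 7 did not pass the test, a share of 77.8% lower against 17.3% of all members, with a median of -0.75. Without the 12 genes whose direction was known, 17 of 24 fell, 1 rose and 6 did not pass, with a median of -0.53. These 24 are no independent check either. BCAS1, an oligodendrocyte gene often amplified in breast cancer, read 769.1, 909.8 and 834.6 on dox arrays, against 3168, 4545 and 4117 on vehicle arrays. IGFBP3, which sequesters insulin-like growth factors, read 320.2, 362.2 and 299.1 on dox arrays, against 1322, 1430 and 1622 on vehicle arrays, a 4.45-fold difference. The receptor gene ERBB2 was 2.23-fold lower and its partner ERBB3 fell by 0.68 at its brightest probe, with -0.15 and -0.10 at 2 others. The BMP target ID1 was 2.40-fold lower, the ephrin EFNA1 2.35-fold, the growth suppressor YPEL3 2.33-fold and the cytokine TGFB3 2.29-fold. KLF4, a zinc finger regulator of epithelial differentiation, was the 1 member that rose (0.62 ± 0.08 SE).

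Set side by side, 13 of the 30 genes that rose most stand on the estrogen-induced list of 76 measured genes, and 1 (CXCL12) on the RUNX2 list of 22. Of the 30 that fell most, 6 stand on the estrogen-repressed list of 36 and 0 on the RUNX2 list. These lists were written with earlier results of these data known, so the counts describe the arrays and are no independent evidence of a direction. Androgen-induced genes went both ways: 9 of 26 measured members rose (34.6%, against 16.6% of all members) and 8 fell (30.8%, against 17.3%), with a median of 0.02. The kinase gene SGK1 was 4.73-fold higher, while the leucine zipper factor TSC22D3 was 2.61-fold lower, the surface protease TMPRSS2 2.21-fold and the stress gene NDRG1 2.16-fold. FKBP5, a cochaperone induced by androgen and by glucocorticoid, changed by 0.29 and lost its call without vehicle replicate 2 or dox replicate 2.

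**Figure D3:**
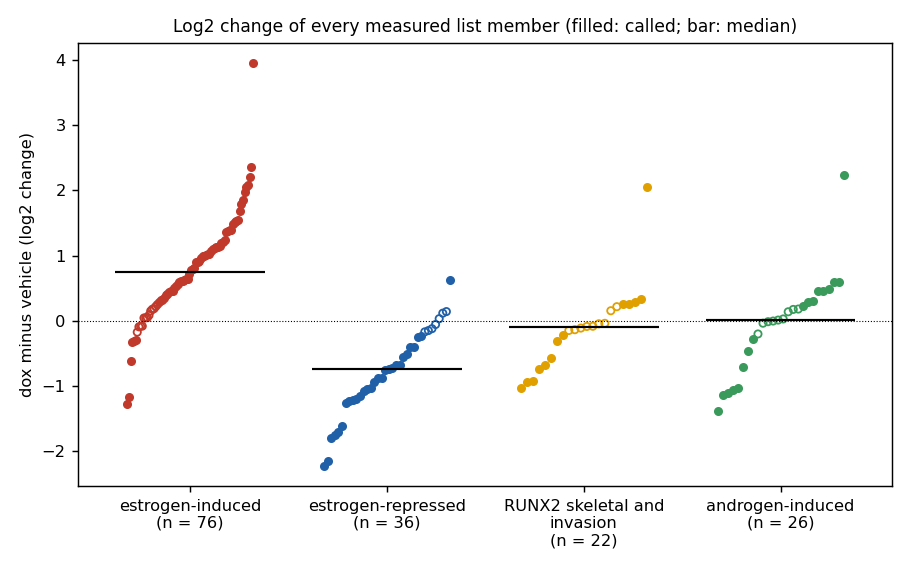
Log2 change (dox minus vehicle) of every measured member of 4 gene lists, filled where called, with the median as a bar. The medians are 0.75 for estrogen-induced genes, -0.75 for estrogen-repressed genes, -0.10 for the RUNX2 list and 0.02 for androgen-induced genes.

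The 30 largest rises also held genes on neither of these lists. MGP, which keeps soft tissue from calcifying, read 4421, 4297 and 4856 on dox arrays, against 486.8, 455.0 and 486.6 on vehicle arrays. KLK11, a secreted serine protease, was 7.09-fold higher at its brighter probe (-0.16 at a dimmer one), and HEY2, a repressor in the Notch pathway, 6.33-fold. ARHGAP36 was 7.16-fold higher and PKIB 4.88-fold, and the products of both hold back protein kinase A. CALCR, the calcitonin receptor, was 3.14-fold higher and RAMP3, which pairs with it to form a receptor for amylin, 3.65-fold.

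Others of the same 30 genes follow. IGSF1, a membrane glycoprotein, was 6.09-fold higher, the protease inhibitor SERPINA3 3.59-fold and the heparan sulphate sulphotransferase HS3ST3A1 3.53-fold. GLA, a lysosomal galactosidase, read 6535, 7271 and 6933 on dox arrays, against 2102, 2081 and 2243 on vehicle arrays. SOX3, a neural and pituitary transcription factor, was 3.04-fold higher, DEPTOR, an inhibitor of the mTOR kinase, 2.84-fold, and the membrane protein TMEM164 3.13-fold at its brightest probe, with log2 changes of 0.62 and 0.22 at 2 others. The cadherin CDH26 was below background on every vehicle array and at least 2.65-fold higher with dox. Of the genes on the estrogen-induced list, the atypical cadherin CELSR2 and KRT13, a keratin of stratified epithelium, were 2.86-fold and 2.90-fold higher.

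The largest fall belonged to a gene of the urothelial plaque. UPK1A read 232.7, 234.2 and 269.0 on dox arrays, against 1415, 1495 and 1501 on vehicle arrays, a 6.01-fold difference (log2 -2.59 ± 0.10 SE, limma adjusted p = 1.99e-14). UPK2, its partner in the plaque, was 2.47-fold lower and UPK3B 2.37-fold (1 of its 4 other probes changed by 0.01). Of 4 measured uroplakins, 3 fell (75%, against 17.3% of all members) and 0 rose (against 16.6%). The pattern for this family was widened to take in UPK2 after its values had been seen.

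Others of the 30 largest falls follow. APOD, a lipid-carrying lipocalin, was 3.18-fold lower, MB, the oxygen-binding myoglobin, 2.82-fold, and EPAS1, a hypoxia-inducible factor, 2.58-fold. The amine oxidase MAOA was 2.57-fold lower, the glycogen-targeting subunit PPP1R3C 2.64-fold, the secreted phospholipase PLA2G10 2.79-fold and the aryl hydrocarbon target CYP1A1 2.49-fold. Receptors among them were the lactate receptor HCAR1 (2.88-fold lower), the ATP-gated channel P2RX2 (2.91-fold, with a log2 change of -0.24 at its other probe) and the interleukin receptor IL1R1 (2.66-fold). LXN, a carboxypeptidase inhibitor and the brightest of the 30, read 7231, 6329 and 5855 on dox arrays, against 16383, 16680 and 16269 on vehicle arrays.

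The rest of the 30 included TNS3, which links integrins to actin (3.48-fold lower), and the actin cross-linker LIMA1 (2.77-fold). TP53INP1 was 3.36-fold lower and DRAM1 2.81-fold, and both promote autophagy downstream of p53. The vesicle genes RAB26 and VAMP5 were 2.51-fold and 2.47-fold lower, and the endocytic adaptor DAB2 2.49-fold. GRHL3, a factor of epithelial barriers, was 3.25-fold lower, the growth factor antagonist SPRY1 3.06-fold and the coagulation inhibitor TFPI 2.47-fold. CDK6, a partner of D-type cyclins, read 393.3, 363.2 and 346.1 on dox arrays, against 1028, 1042 and 1080 on vehicle arrays. PGM5 and FAM174B were 2.47-fold and 2.54-fold lower.

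Genes of cell division rose together. Of 53 measured mitosis genes, 49 rose and 0 fell, with a median of 0.44, against 16.6% of all members higher. No single change among them reached 2-fold. The chromosomal passenger kinase AURKB read 1288, 1362 and 1200 on dox arrays, against 704.9, 838.0 and 805.5 on vehicle arrays (1.64-fold). Securin (PTTG1) was 1.58-fold higher, survivin (BIRC5) 1.54-fold (log2 0.11 at its dimmer probe), and CDC20, which activates the anaphase-promoting complex, read 5401, 5718 and 5908 on dox arrays, against 3734, 3649 and 3707 on vehicle arrays. Between 44 and 49 of the 53 were higher in each of the 22 alternatives.

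Genes of replication, repair and nucleotide supply also rose, with list medians of 0.27 to 0.31 and shares higher of 63.3% to 65.4%, against 16.6% of all members. Of 30 replication origin and helicase genes 19 rose and 0 fell, led by GINS3 (0.72), CDC45 (0.66), TIPIN (0.66) and MCM10 (0.64). Of 30 polymerase and fork genes 19 rose and 0 fell, led by the clamp loader RFC3 (0.72) and the polymerase subunit POLD2 (0.67). Nucleotide synthesis had 19 of 30 higher and 1 lower, with CTPS1, which makes CTP, at 1554, 1425 and 1508 on dox arrays and 842.7, 764.5 and 675.1 on vehicle arrays. PRPS1, which makes the ribose phosphate donor, was the 1 that fell (-0.52). Of 26 homologous recombination and Fanconi genes 17 rose, led by the checkpoint kinase CHEK1 (0.72), and XRCC2 fell (-0.32, a call lost in 4 of 22 alternatives, with -0.14 at its other probe).

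Of 31 measured G1 regulators, 18 rose (58.1%, against 16.6% of all members) and 4 fell (12.9%, below the 17.3% of all members). The phosphatase CDC25A rose by 0.81, E2F6 by 0.92, CDKN3 by 0.65 and CCND1 by 0.60. The 4 that fell were CDK6 (-1.52), the inhibitor CDKN2B (-1.23), the pocket protein RBL2 (-0.90) and CCNG2 (-0.87), a cyclin of growth arrest. CDKN1B had probes that were called in opposite directions and is left as uncertain.

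The promoters of the mitosis genes shared short sequence elements. RefSeq windows from 250 bases before to 50 bases after the start were searched on both strands for the CCAAT box (CCAAT) and the cell cycle homology region (TTTGAA), elements known from genes of late cell cycle. Among the 45 mitosis genes with a promoter entry, 71.1% held CCAAT and 73.3% held TTTGAA, against 37.1% and 9.82% of the 9390 members with an entry. In all 27305 promoters the shares were 35.7% and 15.4%. A match describes these letters and is not a proven site. These sets were searched after their changes had been seen. The windows of AURKB (chr17:8210176-8210475, minus strand), PTTG1 (chr5:160421605-160421904, plus strand) and CDC20 (chr1:43358731-43359030, plus strand) are shown because these genes were named above, and that of the centromere gene CENPN (chr16:81006964-81007263, plus strand; 0.60) because both motifs lie at its start. They follow GRCh38.p14, 5′ to 3′, with matches to either motif on either strand in capitals. AURKB and PTTG1 hold CCAAT matches only, and CDC20 and CENPN hold both motifs.
AURKB: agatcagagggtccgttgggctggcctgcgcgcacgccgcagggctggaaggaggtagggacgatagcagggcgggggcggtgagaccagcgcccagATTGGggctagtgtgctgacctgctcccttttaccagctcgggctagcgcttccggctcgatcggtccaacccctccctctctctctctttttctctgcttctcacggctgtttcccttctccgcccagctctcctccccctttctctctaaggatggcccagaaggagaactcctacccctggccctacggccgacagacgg
PTTG1: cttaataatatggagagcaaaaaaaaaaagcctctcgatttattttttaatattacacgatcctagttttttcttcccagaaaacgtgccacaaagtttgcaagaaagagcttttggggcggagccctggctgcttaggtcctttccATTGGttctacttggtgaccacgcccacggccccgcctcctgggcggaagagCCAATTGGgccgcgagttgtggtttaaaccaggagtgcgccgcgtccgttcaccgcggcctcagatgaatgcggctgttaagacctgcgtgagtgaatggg
CDC20: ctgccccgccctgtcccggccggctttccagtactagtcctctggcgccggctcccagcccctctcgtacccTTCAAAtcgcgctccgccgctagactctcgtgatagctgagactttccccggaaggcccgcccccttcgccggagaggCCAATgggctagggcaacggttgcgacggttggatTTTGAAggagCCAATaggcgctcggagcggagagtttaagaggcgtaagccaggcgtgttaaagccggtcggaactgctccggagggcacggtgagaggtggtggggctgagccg
CENPN: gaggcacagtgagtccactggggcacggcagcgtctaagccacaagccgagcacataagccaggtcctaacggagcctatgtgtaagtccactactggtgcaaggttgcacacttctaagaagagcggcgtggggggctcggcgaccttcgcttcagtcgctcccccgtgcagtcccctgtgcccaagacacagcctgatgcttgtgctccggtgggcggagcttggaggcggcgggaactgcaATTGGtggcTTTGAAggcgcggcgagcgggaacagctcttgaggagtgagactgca

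Genes that build ribosomes also rose. Of 56 measured nucleolar and ribosome assembly genes, 43 rose (76.8%, against 16.6% of all members) and 0 fell (17.3% of all members), with a median of 0.40. RRS1, an assembly factor of the large subunit, read 1634, 1671 and 1522 on dox arrays, against 839.1, 874.7 and 689.2 on vehicle arrays (2.02-fold). LYAR was 1.93-fold higher, BYSL, needed for the small subunit, 1.92-fold, and BOP1 1.84-fold. Among the 47 of these genes with a promoter entry, 34% held the E-box CACGTG that MYC proteins recognise, against 10.2% of the 9390 members. The E-box was also found in 19.6% of the promoters of estrogen-induced genes, 23.1% of estrogen-repressed genes and 21.7% of the 30 largest rises. The window of BYSL (chr6:41921249-41921548, plus strand) is shown as an example from the genes named above, with its 1 match in capitals.
BYSL: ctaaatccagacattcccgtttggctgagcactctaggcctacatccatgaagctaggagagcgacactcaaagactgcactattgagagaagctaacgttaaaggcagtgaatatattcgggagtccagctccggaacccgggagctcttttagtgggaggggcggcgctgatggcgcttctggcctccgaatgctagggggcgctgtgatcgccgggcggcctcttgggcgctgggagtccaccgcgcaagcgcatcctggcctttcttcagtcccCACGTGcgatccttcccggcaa

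Searches for receptor and RUNX elements gave other shares. A full estrogen response element (GGTCA and TGACC with any 3 bases between them) was found in 0 of 56 promoters of estrogen-induced genes and in 0 of 23 among the 30 largest rises, against 0.0106% of the members' promoters. That share is 1 of 9390 promoters, so counts of 0 in sets this small do not set these genes apart. Of the 76 estrogen-induced genes only these 56 had a promoter entry. GREB1, MGP and TFF1 had none and were not searched. The RUNX motif (TGTGGTT) was found in 0 of 56 and 0 of 23 of the same promoters, in 2 of 14 (14.3%) of the RUNX2 list and in 2.91% of the members. In all, 5 motifs were searched in 12 sets, and windows of this length leave distant elements unread. Among the 30 largest falls 1 of 21 promoters (4.76%) held the RUNX motif, that of PPP1R3C (chr10:91633022-91633321, minus strand), shown with the match in capitals.
PPP1R3C: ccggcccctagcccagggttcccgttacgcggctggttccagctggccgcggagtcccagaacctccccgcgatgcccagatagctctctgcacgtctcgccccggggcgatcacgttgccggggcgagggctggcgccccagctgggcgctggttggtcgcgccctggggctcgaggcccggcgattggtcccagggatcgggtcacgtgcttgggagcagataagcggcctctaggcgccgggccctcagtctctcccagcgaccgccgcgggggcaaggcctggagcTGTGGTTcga

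Several lists tied to protein synthesis and handling had a share higher above the 16.6% of all members. Those that follow ran from 36.8% for mitochondrial ribosomal proteins to 61% for nuclear pore and import genes. The share was smaller for unfolded protein response and ER folding genes (31.4%), mitochondrial tRNA synthetases (31.2%) and translation factors (28.3%). For cytosolic ribosomal proteins it was 14.1%, below that of all members. Nuclear pore and import genes had 25 of 41 higher and 1 lower, led by the importin IPO4 at 880.6, 884.5 and 839.3 on dox arrays and 466.9, 527.2 and 503.5 on vehicle arrays. Mitochondrial import and chaperone genes had 18 of 37 higher and 0 lower, led by TIMM10 (0.60). Of 33 heat shock genes, 16 rose, led by the small heat shock protein HSPB8 (1.37), FKBP4 (1.14) and HSPA12A (0.81), and BAG1 fell (-0.48). Of 18 cytosolic tRNA synthetases 9 rose and 0 fell, led by YARS1 (0.60), with 7 higher and 2 lower without vehicle replicate 1, and 28 of 76 mitochondrial ribosomal proteins rose, led by MRPL12 (0.76), while 1 fell (MRPS28, -0.40). Proteasome subunits had 16 of 42 higher and 2 lower, a count that dropped to 9 higher without vehicle replicate 3 and to 10 without dox replicate 1.

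Amino acid genes were higher in 41.9% of cases and polyamine genes in 35.7%, against 16.6% of all members. SLC7A5, the light chain of a transporter of large neutral amino acids, read 7579, 7870 and 7870 on dox arrays, against 2335, 2378 and 2037 on vehicle arrays. SLC3A2, its heavy chain, read 2312, 2400 and 2352 on dox arrays, against 1055, 1074 and 995.6 on vehicle arrays. In the amino acid and ATF4 stress list 13 of 31 genes rose and 2 fell, and the stress gene DDIT4, which restrains mTOR, fell by 0.87. Among 14 polyamine genes, the synthesis genes AMD1 (0.89), SRM (0.67) and ODC1 (0.60) rose, and SAT1 (-0.81) and SAT2 (-0.26), which acetylate polyamines, fell. The SAT2 call was lost in 5 of 22 alternatives.

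**Figure D4:**
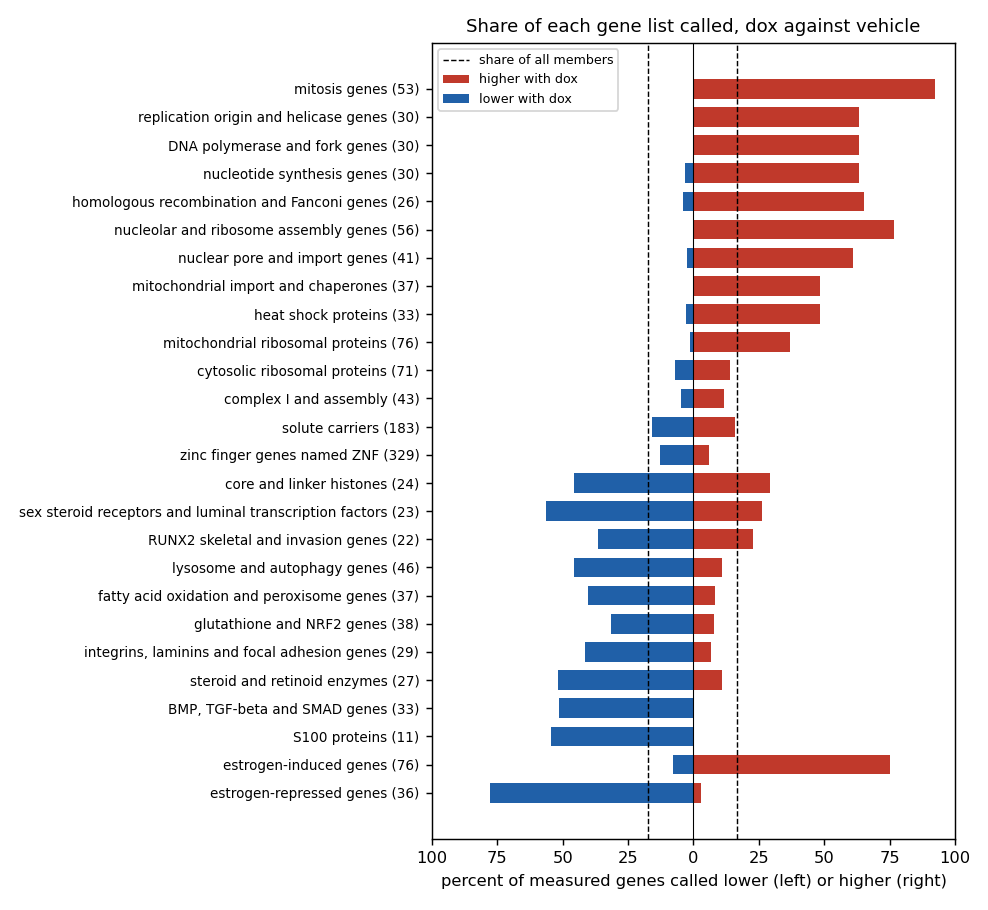
Percent of the measured genes of 26 lists called lower (left) or higher (right) on dox arrays than on vehicle arrays, with the share of all members (17.3% lower, 16.6% higher) as dashed lines and the number of measured genes in brackets. Cell division and ribosome assembly lists reach to the right, and BMP, lysosome, steroid enzyme and S100 lists to the left.

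BMP and TGF-beta genes lay lower with dox. Of 33 measured, 17 fell and 0 rose, with a median of -0.25, against 17.3% of all members lower. BAMBI, a decoy receptor induced by BMP, read 5253, 4529 and 4949 on dox arrays, against 10653, 10808 and 10760 on vehicle arrays (2.19-fold). ID1 read 1435, 1457 and 1291 on dox arrays, against 3249, 3562 and 3214 on vehicle arrays, and its relative ID3 was 2.11-fold lower. Both block basic helix-loop-helix factors and are direct BMP targets. The ligand TGFB3 was 2.29-fold lower. Across the 22 alternatives 16 to 18 members were lower and 0 higher.

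Shares lower in the degradation and detoxification lists ran from 31.6% to 51.9%, against 17.3% of all members, and shares higher from 7.89% to 11.1%, against 16.6%. Of 46 lysosome and autophagy genes, 21 fell and 5 rose, with the proteases CTSH (1.97-fold lower) and CTSA (1.66-fold) on one side and GLA and CTSD on the other. The glutathione and NRF2 list had 12 of 38 lower and 3 higher, led by the exporter ABCC3 (2.36-fold lower) and the transferases GSTM3 (2.08-fold) and GSTM1 (1.75-fold), and 5 were higher without DHT with dox replicate 3. Other GSTM1 probes changed by -0.55 and -0.21. GSTM genes are near-identical, so that their probes may share signal. Steroid and retinoid enzymes had 14 of 27 lower and 3 higher, among them HSD17B11 at 339.2, 325.7 and 273.9 on dox arrays and 703.9, 671.4 and 726.6 on vehicle arrays. ALDH1A3, which makes retinoic acid, was 2.10-fold lower. The androgen-conjugating UGT2B17 was at least 1.77-fold higher and its near-identical relative UGT2B15 at least 1.22-fold. Fatty acid oxidation and peroxisome genes had 15 of 37 lower and 3 higher, with 12 lower and 1 higher without vehicle replicate 2 or dox replicate 3, 10 and 1 without vehicle replicate 3, and 11 and 0 without dox replicate 1.

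Among the S100, junction and integrin lists, 29.7% to 54.5% of genes were lower, against 17.3% of all members. Of 11 measured S100 calcium-binding proteins, 6 fell and 0 rose, with S100P at 2662, 2608 and 2902 on dox arrays and 4840, 5437 and 5156 on vehicle arrays and S100A16 at a change of -0.71. Junction genes had 11 of 37 lower, led by cingulin (CGN, 1.82-fold lower) and the claudins CLDN7 (-0.70), CLDN9 (-0.66) and CLDN3 (-0.54). Of the 4 junction genes called higher, PKP3, GJB2 and CLDN12 lost their calls in 4 to 9 of 22 alternatives, and GJA1 (0.41) kept its call in all of them. The count of 4 was 1 without vehicle replicate 1 or 3 or dox replicate 2, and 2 without vehicle replicate 2, dox replicate 1 or DHT replicate 3. Integrin, laminin and focal adhesion genes had 12 of 29 lower and 2 higher, led by TNS3, the adaptor PXN (-0.80), BCAR3 (-0.74) and ITGAV (-0.60), with ITGA2 higher (0.66).

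Sex steroid receptors and luminal regulators went both ways, with more of them lower than higher. In the list of sex steroid receptors and luminal transcription factors 13 of 23 fell (56.5%, against 17.3% of all members) and 6 rose (26.1%, against 16.6%), with a median of -0.28. GATA3, which specifies luminal cells, read 2472, 2680 and 2955 on dox arrays, against 3790, 4078 and 3797 on vehicle arrays. FOXA1, which opens chromatin for steroid receptors, read 7596, 7650 and 7611 on dox arrays, against 9424, 10059 and 9722 on vehicle arrays, a narrow change of -0.35 with no overlap. ELF3 (-1.16) and ELF5 (-0.77), both ETS factors of epithelium, fell, and MYB, PGR, RARA and XBP1 led those that rose.

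Growth factor and survival families held genes of both directions. In the ERBB family 3 of 12 genes rose and 3 fell (25% each, against 16.6% and 17.3% of all members). The ligand TGFA was 1.93-fold higher, whereas ERBB2, GRB7 (-0.73) and ERBB3 were lower. In the IGF axis 6 of 19 rose (31.6%) and 5 fell (26.3%), with 5 and 3 without vehicle replicate 2 and 7 and 3 without dox replicate 1. STC2 (1.15), IGFBP4 (1.02), STC1 (0.84) and IRS1 (0.63) rose, while IGFBP3, SOCS2 (-0.84), GRB14 (-0.81) and GRB10 (-0.33) fell. Other probes changed by -0.24 and -0.20 for GRB14 and by -0.07 for GRB10. Among 21 Notch genes 2 rose (9.52%) and 6 fell (28.6%), with 3 lower without vehicle replicate 3. HEY2 rose, and HES1 read 306.9, 328.3 and 312.1 on dox arrays, against 581.8, 686.7 and 570.7 on vehicle arrays. Of 19 BCL2 family genes 9 fell (47.4%, against 17.3% of all members), with the death inducers BMF and BIK (-0.75) beside the survival genes BCL2L1 (1.82-fold lower) and MCL1 (-0.43), and 4 rose. The chemokine receptors ACKR3 and CXCR4, which both bind CXCL12, were 2.34-fold lower and 1.16-fold lower.

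Shares called in several other families lay between 16.3% and 31.7%, against 33.9% of all members. Zinc finger genes named ZNF were called in 18.5% of 329 cases, solute carriers in 31.7% of 183, histone-modifying enzymes in 18% of 50, complex I genes in 16.3% of 43 and cytosolic ribosomal proteins in 21.1% of 71. No difference between these shares was tested. The ribosomal protein calls of 10 higher and 5 lower were 8 and 3 without vehicle replicate 1, vehicle replicate 2 or dox replicate 3, 7 and 2 without dox replicate 2, 10 and 2 without DHT replicate 1, 10 and 3 without DHT with dox replicate 2, and 17 and 6 with the mean of the probes. RPS7 was 1.90-fold higher (log2 1.08 at its other probe), and RPL36A 2.04-fold at its brighter probe but -0.16 on the log2 scale at the other. This family has many pseudogene copies that could share signal. Complex I calls of 5 higher and 2 lower were 3 and 2 without vehicle replicate 3 or dox replicate 1, and ZNF calls of 19 and 42 were 12 and 34 without dox replicate 3. Core and linker histones had 7 of 24 higher (29.2%, against 16.6% of all members), led by the replacement histone H2AX (0.59), and 11 lower (45.8%, against 17.3%), led by H1-2 at 2531, 2346 and 2772 on dox arrays and 4974, 5595 and 4592 on vehicle arrays. Without vehicle replicate 3, 4 were higher and 10 lower. Histone genes are alike in sequence, so that single members are uncertain. Interferon-stimulated genes had 10 of 35 lower (28.6%, against 17.3% of all members) and 2 higher (HERC5, 2.75-fold, and HERC6, 0.67), and without DHT replicate 3 these counts were 12 and 4. IRF9 (-0.68) lost its call without vehicle replicate 1.

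The same comparison was made in the presence of DHT, on the other 6 arrays. The comparison above used these arrays only for the spread, the choice of probes and the genes tested. DHT with dox differed from DHT for 4019 members (34.3%), with 1713 higher (14.6%) and 2306 lower (19.7%). Of the 3969 genes called without DHT, 2795 were called the same way with DHT and 20 the opposite way. Of the 733 called at 1.5-fold or more, 721 were called the same way, and so were 60 of 60 of the most changed genes. GREB1 changed by 4.17 with DHT and by 3.96 without it, and UPK1A by -2.63 and -2.59. Both comparisons share the fit's estimate of the spread.

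With DHT some gene lists had counts close to those without it and others did not, and the differences between list counts were not tested. Among all members 14.6% were higher and 19.7% lower with DHT, against 16.6% and 17.3% without it. Estrogen-induced genes were higher in 59 of 76 cases and lower in 7, estrogen-repressed genes lower in 29 of 36, and mitosis genes higher in 47 of 53. Interferon-stimulated genes were lower in 21 of 35 cases with DHT and 10 without it, with medians of -0.46 and -0.14, and actin and contractile genes in 16 of 34 with DHT and 9 without it. MAP kinase feedback genes had 4 of 22 higher and 9 lower with DHT, and 6 higher and 3 lower without it, where leaving out vehicle replicate 2, dox replicate 1 or dox replicate 3 left 1 lower. The RUNX2 list had 1 of 22 higher with DHT, against 5 without it, and 9 lower, against 8. The 1 higher with DHT was CXCL12 (1.95), and the brighter RUNX2 probe changed by 0.08 (limma adjusted p = 0.578). The difference between the 2 dox changes of that probe was -0.25 and did not pass the test (limma adjusted p = 0.587).

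The difference between the 2 dox changes passed the test for 35 members (0.299%; limma adjusted p under 0.05), with the change under DHT above that without it for 16 and below it for 19. At an unadjusted p under 0.05 there were 1196. The count of 35 was 17 without vehicle replicate 2, 16 without dox replicate 1, 9 without dox replicate 3, 16 and 14 without DHT replicates 1 and 2, and 21 and 18 without DHT with dox replicates 2 and 3. The fall of EPAS1 was larger with DHT, 2.09 against 1.37 without it on the log2 scale, and that of ALDH1A3 was 1.63 against 1.07. EPAS1 averaged 1121 with DHT and dox and 4777 with DHT, against 816.5 with dox and 2103 with vehicle. ALDH1A3 averaged 644.9 with DHT and dox and 1991 with DHT, against 379.7 with dox and 797.4 with vehicle. Both therefore stayed higher with DHT and dox than with dox alone. The metallothionein MT2A changed by 0.60 with DHT and by 1.24 without it, and IGFBP4 by 0.38 and 1.02. CXCR4 changed by -0.93 with DHT and by -0.22 without it.

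**Figure D5:**
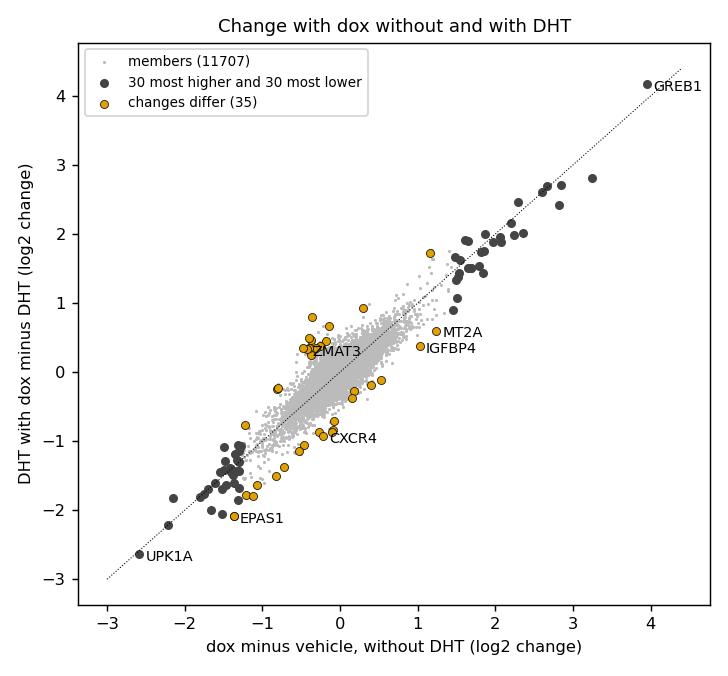
Log2 change with dox in the presence of DHT (vertical) against that without DHT (horizontal) for 11707 genes, with the 60 most changed genes in dark grey, the 35 genes whose changes differ in yellow and equality as a dotted line. The most changed genes lie along the line, and EPAS1, CXCR4, MT2A and IGFBP4 lie below it.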

How the data were processed

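Total RNA of 12 cultures was read on Illumina bead arrays. The deposited values are linear intensities, processed with GenomeStudio per the submitters' processing notes. The array medians were all 137.6 and the sorted arrays differed by at most 0.8 units, so the deposited intensities were already normalised between arrays; how is not stated in these sources. They ran from 84.1 to 27321.9 with background signal included. The deposited intensities were taken to log2 with no further scaling. Precision is limited by the 12 arrays, 3 a group.

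Of 47230 probes, 30113 had 1 gene symbol, 8 several and 17109 none; 30074 were named through RefSeq (GRCh38.p14) and 39 by the platform's symbol. The background limit of 147.5 intensity units was the 95th percentile of 637 probes for 533 genes of olfactory receptor, taste receptor, keratin-associated and defensin families. Each gene was read by its brightest probe. Of 3222 members with several probes above background, 15 had probes called in opposite directions.

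Group means of all 12 arrays were fitted with limma 3.58.1 (lmFit, eBayes with trend) in R 4.3.3, and p-values were adjusted by Benjamini-Hochberg over 12122 genes. Tables and figures were made in Python 3.11.15 with pandas 2.3.3, numpy 2.4.6 and matplotlib 3.10.9. On simulated data for dox against vehicle over 12122 genes, 80 of 100 genes changed by log2 0.5 and 100 of 100 changed by log2 1 were recovered, with 9 false calls. Only these genes were changed there, with independent noise, a far smaller share than the 33.9% of members called in the data. The recovery and the false calls therefore do not carry over to the calls in the data. The members and the gene lists were chosen with earlier results of these data known. Genes were named as the 30 most changed each way, the 4 most changed each way in each list, the members of the RUNX2 and estrogen lists, and markers; the ribosomal proteins, tRNA synthetases and chemokine receptors beyond these were chosen after their values were seen. Replicate numbers in the titles were not used to pair the arrays in the main fit.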

Additional observations from a re-analysis of the deposited data

Results flagged for a closer look

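For 10 named genes the change with dox differed between cells with and without DHT by a test of the difference itself (limma, adjusted p between 0.0124 and 0.0473 over all genes tested). The difference, in brackets, is the log2 change with DHT minus that without it. Among genes lower with dox, EPAS1 changed by -2.09 with DHT and -1.37 without it (difference -0.723), and ALDH1A3, which makes retinoic acid, by -1.63 with DHT and -1.07 without it (-0.564). CXCR4 changed by -0.93 with DHT and -0.22 without it (-0.707), and the secreted protein gene CRISPLD2 by -0.87 with DHT and -0.27 without it (-0.604). The cytoskeletal adaptor PDLIM1 changed by -1.06 with DHT and -0.47 without it (-0.596). The scavenger receptor ACKR3 changed less with DHT, by -0.77 against -1.23 without it (0.463), and so did the insulin receptor adaptor GRB14, by -0.24 against -0.81 (0.571). The p53 target ZMAT3 changed by 0.33 with DHT and by -0.43 without it (0.76). Among genes higher with dox, the metallothionein MT2A changed by 0.60 with DHT and 1.24 without it (-0.638), and IGFBP4, which binds insulin-like growth factors, by 0.38 with DHT and 1.02 without it (-0.644).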

How the results depend on the processing

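The 22 alternatives left out single arrays or changed the replicate block, the arrays fitted, the filter on dim probes, the background correction, the scaling, the probes of a gene, the variance prior or the genes tested. The count of 3969 ran from 3352 to 4004, and that of 733 at 1.5-fold from 628 to 937. The median of all members stayed between -0.007 and -0.004. With the replicate number as a block 3855 genes were called, 11 of the RUNX2 list and 50 differences between the dox changes. Correlations of deviations between the dox and vehicle arrays of a number were 0.227, 0.057 and -0.04. Of 6 arrays, 3 correlated best with their own number, and whether the numbers mark a shared batch was not settled. Leaving out single arrays, called members of the RUNX2 list ran from 8 to 13, the RUNX2 change from 0.268 to 0.398, and the 35 differences between the dox changes from 9 to 52. As the mean of its probes RUNX2 changed by 0.159 and missed the threshold. The difference cannot be computed from the 6 dox and vehicle arrays alone. Of 513 named genes called, 424 kept the call under all 22. With the mean of the probes the sign turned for RPS24 (0.276), COX16 (0.080), EGFR (-0.003), MSMB (-0.004), STEAP1 (0.077), CD68 (0.202) and CD79A (0.019). Leaving out single arrays, the sign turned for uncalled genes, whose changes ran from -0.146 to 0.032 for COL1A1, -0.093 to 0.065 for RUNX1, -0.234 to 0.010 for TNFSF11, -0.154 to 0.051 for RUNX1T1, -0.010 to 0.078 for AGR2, -0.054 to 0.180 for E2F1, -0.152 to 0.011 for SLC24A3, -0.185 to 0.041 for IGFBP5, -0.064 to 0.202 for VIM, -0.080 to 0.024 for CD14 and -0.213 to 0.166 for CD68. The causes were not tested.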
